A study of Mus musculus with 2 samples.

Results

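The mitochondrial respiratory chain was described here through 106 genes in 2 libraries of mouse breast tumour tissue. The members were every gene symbol of the count table that begins with Ndufa, Ndufb, Ndufc, Ndufs, Ndufv, Uqcr, Cox4, Cox5, Cox6, Cox7, Cox8 or Atp5 (leaving out Cox8b and Cox7a1), Sdha to Sdhd, and the 13 protein genes of mitochondrial DNA, with a combined count of at least 20. That rule caught 109 symbols of 35602, and 106 passed the count minimum, among 18687 symbols that did so in the whole table. The 3 that did not were Cox7b2 with 0 and 2 counts and Cox8c and Ndufs6b with none in either library, while the member with the fewest counts was Cox6b2 with 49 and 35 counts. Of the members 93 are encoded in the nucleus and 13 in the mitochondrion. The nuclear members comprise 78 subunits of the common chain, 8 complex I assembly factors of the Ndufaf series that share the Ndufa prefix, 4 isoforms restricted to certain tissues or oxygen levels, and 3 symbols of copy type (Ndufab1-ps, Ndufb4b and Ndufb4c) whose reads may be shared with their parent genes.

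One library represents tumours treated with a PD-1 inhibitor alone, injected into the peritoneum, and the other represents tumours treated with the same injection plus acupuncture. PD-1 inhibition was thus common to both, and no untreated tumour was analysed here. The sources used here do not give strain, age, tumour line or the number of animals behind each library. With 1 library per group there is no replicate spread and no test, and every interval in parentheses is a 95% counting interval. The total was 105728292 counts with the inhibitor alone and 60752043 with acupuncture. Levels are given as counts per 1000000 of the scaled library (CPM), first with the inhibitor alone and then with acupuncture. Ratios are acupuncture over inhibitor alone, and the words listed as higher or lower mark a ratio of at least 2-fold whose interval lies off 1. The label of the tissue was not tested. None of 9 epithelial markers was at 0, but only 40 and 37 of the 18687 genes tested were at 0. Krt8, a keratin of simple epithelia, stood at 1564 and 1059.9 CPM.

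The respiratory chain lies in the inner mitochondrial membrane. Complexes I and II pass electrons from NADH and succinate to coenzyme Q, complex III passes them on to cytochrome c, and complex IV hands them to oxygen. Proton pumping by complexes I, III and IV drives complex V, the ATP synthase. Complexes I, III, IV and V are built from subunits of both genomes, whereas complex II is wholly nuclear. Mitochondrial DNA is transcribed as long precursors from each strand, which are then cut into separate messengers, so that neighbouring messengers begin from the same precursor.

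Nuclear and mitochondrially encoded subunits differed in opposite directions. The 78 nuclear subunits had a median log2 ratio of -0.22 (quartiles -0.40 and -0.01), against 0.00 over all genes tested, and their summed counts took 0.987% of the library with the inhibitor alone and 0.949% with acupuncture. The 13 mitochondrially encoded genes had a median of 0.37 (quartiles -0.08 and 0.60) and took 1.85% and 2.68% of counts. Summed, the mitochondrially encoded messengers were 1.35-fold higher with acupuncture (1.346 to 1.351), and the nuclear ones were at 0.897 times their level with the inhibitor alone (0.894 to 0.8997). Within a library, 1.88 mitochondrially encoded counts were found per nuclear subunit count with the inhibitor alone and 2.82 with acupuncture, a ratio that does not depend on how the libraries are scaled. The gap between the medians was 0.59 to 0.60 on the log2 scale under every scaling tried, as it must be, because a scaling shifts all log2 ratios nearly alike. The sign of the nuclear median was less fixed: with the libraries scaled to a median of 0 over the 9 epithelial markers, which adds 0.54 to the log2 ratio of every gene, it became 0.31. Under that scaling the direction turns for every gene, group and list given here whose log2 ratio or median lies between 0 and about -0.54.

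Markers of other tissues and cell types differed between the same libraries to unlike degrees. Over all genes tested 9.21% were listed as higher and 4.9% as lower. All 15 skeletal muscle markers were listed as higher with acupuncture, none was at 0 in either library, and their summed level was 289 and 2484 CPM, 8.59-fold higher (8.49 to 8.70). Of 10 adipocyte markers 9 were listed as higher, none was at 0, and the sum was 584 and 2274 CPM. The 9 epithelial markers summed to 3808 and 2587 CPM, most of it from Krt8 and Krt18, with 2 listed as lower. Their log2 ratios ran from -1.71 for Krt19 to 0.44 for Cldn7. Of the 9 intervals 7 lay below 1, 1 lay above it and 1 held it. All 8 T and B cell markers were listed as higher, from 16.1 to 162 CPM in sum, and 6 of 7 neutrophil markers as lower, from 212 to 20.3 CPM. Fibroblast markers summed to 6977 and 9543 CPM with none of 6 past 2-fold. Macrophage markers summed to 1601 and 1368 CPM with none of 7 past 2-fold. Of 6 endothelial markers, which summed to 206 and 157 CPM, 1 was listed as lower. Their intervals lay above 1 for 2 and below it for 4. The part of these tissues and cells in the mitochondrially encoded and nuclear ratios was not tested.

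Few members passed the 2-fold limit. Of 106 members 1 was listed as higher (Cox6a2), against 9.21% of all genes tested, and 3 as lower (Ndufa4l2, Cox4i2 and ND6), against 4.9%. At a limit of 1.5-fold 7 members were higher, beside 14.3% of all genes, and 11 were lower, beside 10.3%. The 7 were Cox6a2, the assembly factor Ndufaf4 and the mitochondrially encoded COX1, ATP6, ATP8, ND4L and ND4. The 11 were Ndufa4l2, Cox4i2, ND6 and 8 nuclear subunits, namely Ndufa2, Ndufa3, Ndufb7, Uqcrh, Cox7a2l, Atp5k, Atp5d and Atp5g2. Counting intervals, whatever the size of the ratio, lay wholly above 1 for 28 members, beside 35.1% of all genes tested, and wholly below 1 for 61, beside 34.8%. They held 1 for 17 members, beside 30.1% of all genes. No nuclear subunit of the common chain passed the 2-fold limit in either direction. With the epithelial scaling 7 members were listed as higher and 1 as lower, and over all genes the share of listed genes that were higher moved from 65.3% to 90.8%. In bulk tissue, fewer cells of a type and less RNA per cell cannot be told apart.

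**Figure D1:**
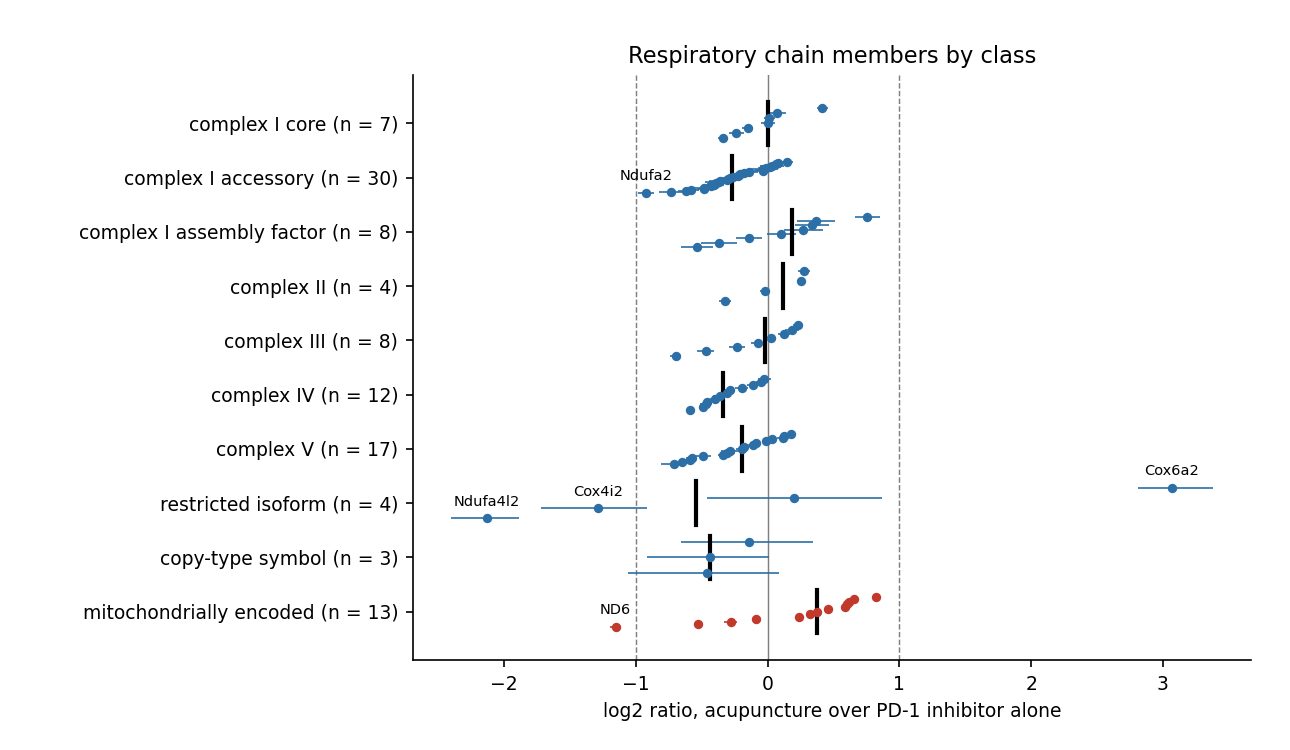
Log2 ratio of each of the 106 members (acupuncture over PD-1 inhibitor alone, horizontal axis) by class; points are genes, thin lines 95% counting intervals, black bars class medians and dashed lines the 2-fold limits. The nuclear subunits lie between -0.92 and 0.41, and the points past the limits are Cox6a2, Cox4i2, Ndufa4l2 and ND6.

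Because neighbouring reading frames overlap on mitochondrial DNA, 2 junctions are shown, read from GENCODE M21 transcripts (GRCm38) from 5′ to 3′, with the bases that both genes share in capitals.

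ATP8 into ATP6: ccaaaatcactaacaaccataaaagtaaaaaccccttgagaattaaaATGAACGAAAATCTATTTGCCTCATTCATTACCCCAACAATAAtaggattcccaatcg

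ND4L into ND4: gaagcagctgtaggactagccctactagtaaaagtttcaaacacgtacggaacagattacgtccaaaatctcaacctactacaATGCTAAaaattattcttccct

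The last 43 bases of ATP8, 21.1% of its 204 bases, are also the first of ATP6, and the last 7 bases of ND4L open ND4. How reads over such bases were divided in counting is not known here. ND6 is the only protein gene read from the opposite strand, and 14 bases of its annotated span overlap the end of ND5.

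ATP8 and ATP6, which leave the precursor as 1 messenger and encode membrane subunits of ATP synthase, differed to the same degree. ATP8 stood at 288 and 442 CPM, 1.53-fold higher (1.51 to 1.56), and ATP6 at 1375 and 2085 CPM, 1.52-fold higher (1.51 to 1.53). There were 4.77 ATP6 counts per ATP8 count with the inhibitor alone and 4.72 with acupuncture. The other joint messenger was less even: ND4L stood at 105 and 165 CPM, 1.57-fold higher (1.53 to 1.62), and ND4 at 1165 and 2066 CPM, 1.77-fold higher (1.76 to 1.79). Both encode membrane subunits of complex I, and ND4 had the highest ratio of the 13 genes. Counts of ND4 per count of ND4L were 11.1 and 12.5.

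The cytochrome oxidase genes and cytochrome b were all higher with acupuncture. COX1, the catalytic subunit of complex IV, was the most abundant member, at 6893 and 10355 CPM, 1.502-fold higher (1.497 to 1.51), and it alone made up 36.0% of the 13 genes' counts with the inhibitor alone (35.9% to 36.0%) and 40.1% with acupuncture (40.0% to 40.1%). COX2, which takes electrons from cytochrome c, stood at 1547 and 1826 CPM, 1.18-fold higher (1.17 to 1.19). COX3 stood at 1530.4 and 1917 CPM, 1.25-fold higher (1.24 to 1.26). CYTB, the only mitochondrially encoded subunit of complex III, was at 2518 and 3466 CPM, 1.38-fold higher (1.37 to 1.38). The ratios of COX2 and COX3 were thus smaller than those of COX1 and CYTB.

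The complex I genes spread widely. ND2, at 880.2 and 1141 CPM, was 1.30-fold higher (1.28 to 1.31). ND1 was at 1767 and 1666 CPM, or 0.943 times (0.936 to 0.950) its level with the inhibitor alone, and ND3 at 105 and 86.6 CPM, or 0.824 times (0.797 to 0.851). ND5, the pump subunit at the far end of the membrane arm, was at 762 and 529 CPM, 1.44-fold lower (1.42 to 1.46). ND6, the light-strand gene, was at 232 and 104 CPM, 2.22-fold lower (2.16 to 2.29), the lowest ratio of the 13. Of the 7 mitochondrially encoded complex I genes 3 had intervals above 1 and 4 below it, beside 35.1% and 34.8% of all genes tested. The intervals of the other 6 genes, of complexes III, IV and V, all lay above 1. ND5 and ND6 are neighbours on opposite strands, and without a stated strand setting reads from one and from antisense RNA of the other cannot be told apart.

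The unevenness among these genes does not depend on scaling. Counts of ND4 per count of ND6 were 5.02 with the inhibitor alone and 19.8 with acupuncture, a 3.94-fold difference. Counts of ND4 per count of ND5 were 1.53 and 3.90, and those of COX1 per count of ND1 were 3.90 and 6.21. Per kilobase, COX1 had the highest level in both libraries, at 4461 and 6702 CPM per kb. The lowest was ND3 with the inhibitor alone, at 302 CPM per kb, and ND6 with acupuncture, at 201 CPM per kb. ND1 changed sign with the scaling, from a log2 ratio of -0.08 to 0.02 with total counts and 0.03 with totals that leave out mitochondrially encoded genes, and with the epithelial scaling ND1, ND3 and ND5 were at 0.45, 0.26 and 0.01. ND6 stayed below 0 under each scaling, at -0.62 with the epithelial one.

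**Figure D2:**
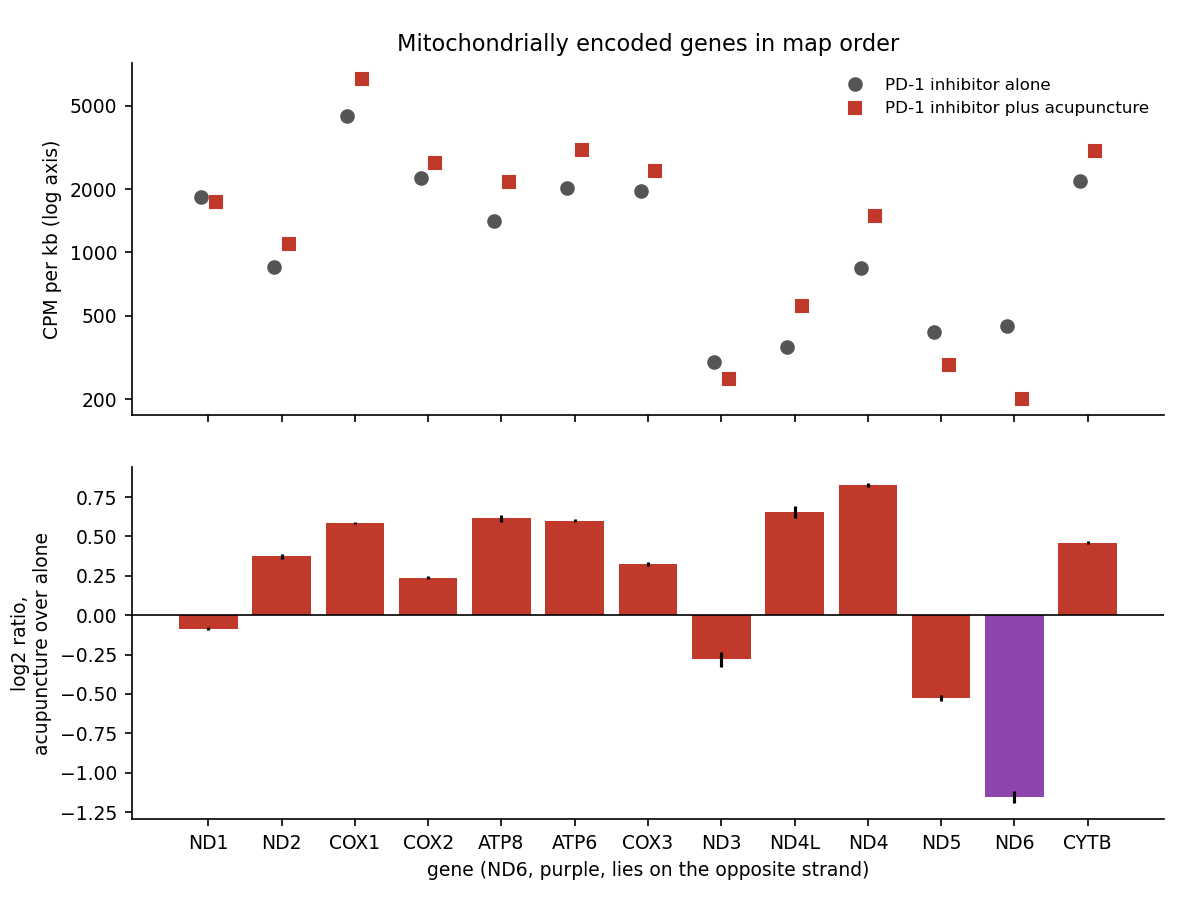
The 13 mitochondrially encoded genes in map order: above, their level in CPM per kilobase on a log axis (circles, PD-1 inhibitor alone; squares, with acupuncture); below, the log2 ratio with its 95% counting interval. ND4 reaches 0.83 and ND6, the gene on the opposite strand, -1.15.

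In complex IV the nuclear subunits lay on 1 side. All 12 of its common subunits had ratios below 1, 11 with the whole interval below it (34.8% of all genes tested), and the median log2 ratio was -0.34 (range -0.59 to -0.02), which kept its sign except under the epithelial scaling, where it was 0.20. Cox4i1, the largest nuclear subunit and the seat of its regulation by ATP, stood at 547 and 389 CPM, 1.41-fold lower (1.39 to 1.43). Cox7a2l, which joins complexes III and IV into supercomplexes, was at 234 and 156 CPM, 1.503-fold lower (1.47 to 1.54), the only one past 1.5-fold. Cox6b1, Cox6c and Cox6a1, small subunits around the catalytic core, were at 144 and 104 CPM, 209 and 153 CPM and 169 and 128 CPM in that order. Cox5b and Cox5a, which flank the core on the matrix side, were at 0.926 times (0.899 to 0.953) and 0.807 times (0.784 to 0.831) their levels with the inhibitor alone. Cox7b, at 79.3 and 78.0 CPM, and Ndufa4, first assigned to complex I and now placed with complex IV, at 141 and 136 CPM, lay closest to 1. By summed counts complex IV had its mitochondrially encoded core 1.41-fold higher (1.41 to 1.42) and its nuclear subunits at 0.777 times (0.771 to 0.783). There were 4.60 and 8.38 core counts per nuclear count. Most of the core counts were those of COX1, and COX2 and COX3 were 1.18-fold and 1.25-fold higher.

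Complex I has 37 nuclear subunits here, and its catalytic core and its accessory shell differed in median. The 7 core subunits, which carry the flavin and the iron-sulphur clusters, had a median log2 ratio of 0.00, with 2 intervals above 1, 3 below and 2 holding it. The 30 accessory subunits had a median of -0.27 (range -0.92 to 0.15), with 3 intervals above 1, 21 below and 6 holding it, beside 35.1%, 34.8% and 30.1% of all genes tested. Ndufs1, the largest core subunit, had levels of 99.0 and 132 CPM, 1.33-fold higher (1.29 to 1.37), the highest ratio of all 78 nuclear subunits. Ndufv1, which binds NADH, was at 117 and 119 CPM, and Ndufs3 at 83.6 and 83.8 CPM, both with intervals that hold 1.

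At the other end, Ndufa2, an accessory subunit of the NADH-oxidising arm, stood at 92.1 and 48.6 CPM, 1.90-fold lower (1.82 to 1.98), the lowest ratio of the 78. Ndufa3 and Ndufb7, both of the membrane arm, were at 37.1 and 22.3 CPM and 94.2 and 61.2 CPM, 1.66-fold lower (1.56 to 1.77) and 1.54-fold lower (1.48 to 1.60). Ndufb9, the most abundant accessory subunit, was at 249 and 213 CPM, or 0.854 times (0.837 to 0.872) its level with the inhibitor alone. Ndufa10, Ndufa9 and Ndufb5 were the accessory subunits with intervals above 1, Ndufa10 at 94.6 and 105 CPM, 1.11-fold higher (1.07 to 1.14). The subunits with the Ndufb prefix, all of the membrane arm, had a median of -0.21 over 11 genes, and those with the Ndufs prefix one of -0.08 over 8.

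The 8 assembly factors, which build complex I and are not part of it, had a median of 0.19 (range -0.53 to 0.76). Ndufaf4 was at 17.2 and 29.0 CPM, 1.69-fold higher (1.58 to 1.81), and Ndufaf5 and Ndufaf2 were 1.29-fold higher (1.17 to 1.43) and 1.26-fold higher (1.16 to 1.38). Ndufaf8 was the lowest, at 17.6 and 12.2 CPM, 1.45-fold lower (1.33 to 1.58), followed by Ndufaf3 at 0.776 times (0.705 to 0.853) its level with the inhibitor alone. Of the 8, 4 had intervals above 1 and 3 below, shares not far from the 35.1% and 34.8% of all genes tested. The 8 measured assembly genes of complex I outside the Nduf names had a median of 0.11, from Tmem126b at 1.53-fold higher (1.38 to 1.69) to Dmac1 at 0.824 times (0.765 to 0.887).

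Complexes II and III lay close to the middle of all genes. Of complex II, Sdha, the flavoprotein that oxidises succinate, stood at 200.1 and 239 CPM, 1.19-fold higher (1.17 to 1.22), and Sdhb, its iron-sulphur partner, at 94.9 and 115 CPM, 1.21-fold higher (1.17 to 1.25). The membrane anchors were at 122 and 97.4 CPM for Sdhc, 1.25-fold lower (1.21 to 1.29), and at 132 and 130.4 CPM for Sdhd, whose interval holds 1. The catalytic pair was thus higher and the anchors were not. Complex III had a median of -0.02 over 8 subunits, with a sign that changed to 0.08 by total counts, 0.00 by upper quartile, 0.09 by totals without mitochondrially encoded genes and 0.51 by epithelial scaling. Uqcrc2 and Uqcrc1, its large core proteins, stood at 121 and 142 CPM and 208 and 212 CPM, the first 1.17-fold higher (1.14 to 1.21). Uqcrfs1, the Rieske iron-sulphur protein, was 1.09-fold higher (1.06 to 1.13). Uqcrh, the acidic hinge protein that docks cytochrome c1, was at 169 and 104 CPM, 1.62-fold lower (1.58 to 1.67), and Uqcr11, a small membrane subunit, was at 0.723 times (0.692 to 0.756) its level with the inhibitor alone.

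In complex V the groups by position differed in median but overlapped. Atp5b and Atp5a1, the catalytic and the companion subunit of the F1 head, were the most abundant nuclear members, at 1005 and 1096 CPM and 663 and 659 CPM. Atp5b was 1.09-fold higher (1.08 to 1.10), while the interval of Atp5a1 holds 1. Atp5c1, the rotating shaft, stood at 271 and 307 CPM, 1.13-fold higher (1.11 to 1.15), whereas Atp5d, at its foot, was at 210.4 and 134 CPM, 1.57-fold lower (1.53 to 1.61). The small Atp5e, also at the foot of the shaft, was at 95.8 and 83.7 CPM, 1.14-fold lower (1.11 to 1.18), so the 5 genes of the head and its shaft ran from -0.65 to 0.18 on the log2 scale and 2 of them lay below Atp5g3 of the c ring. The 4 subunits of the stator stalk, Atp5pb, Atp5h, Atp5j and Atp5o, lay between -0.11 and 0.12 on the log2 scale. The c ring is encoded by Atp5g1, Atp5g2 and Atp5g3, whose mature proteins are alike, and all 3 were lower, at 0.810 times (0.777 to 0.843), 0.664 times (0.646 to 0.682) and 0.886 times (0.868 to 0.904) their levels with the inhibitor alone.

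The 5 small accessory subunits of the membrane part, Atp5j2, Atp5k, Atp5l, Atp5md and Atp5mpl, had a median of -0.49 (range -0.71 to -0.28). All 5 intervals lay below 1, beside 34.8% of all genes tested. Atp5k, one of those that hold synthase dimers together, stood at 33.9 and 20.7 CPM, 1.64-fold lower (1.54 to 1.75). By summed counts the F1 head, most of whose counts are those of Atp5b and Atp5a1, was at 1.02 times its level with the inhibitor alone (1.01 to 1.02), the stator stalk at 0.992 times (0.980 to 1.004), the c ring at 0.797 times (0.785 to 0.809) and the accessory subunits at 0.729 times (0.717 to 0.742). The inhibitor protein of the synthase, listed under its older symbol Atpif1 and outside the rule, was at 178 and 102 CPM, 1.74-fold lower (1.69 to 1.79).

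The nuclear subunits with short messengers had the lower ratios. Transcript length was found for 77 of the 78 in GENCODE M21, and its Spearman correlation with the log2 ratio was 0.51 over these 77 genes, or 0.44 with the shortest in place of the longest principal transcript of each gene. Genes are not independent replicates, and all points share the same pair of libraries. The 44 subunits with up to 1000 bases had a median log2 ratio of -0.31, and the 33 longer ones one of -0.01. Median length was 1623 bases in the complex I core, 763 in its accessory shell and 652 in complex IV, so length and place in the complex move together in these lists. The same direction was seen over all genes tested that had a length, with the chain's own members among them. The 1040 with up to 1000 bases had a median of -0.21, against 0.02 over 14285 longer ones. The correlation over these 15325 genes was 0.11. For GC content the correlation was -0.34 over the 77 subunits and -0.29 over the 15325 genes. The 111 symbols that begin with Rpl or Rps and a digit had a median of -0.46. They were picked by name only and need not all be cytosolic ribosomal proteins. Their level with the inhibitor alone ran from 0.255 to 1945 CPM (median 502), and their lengths were not compared. What part length or base composition has in the subunits' ratios was not tested.

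**Figure D3:**
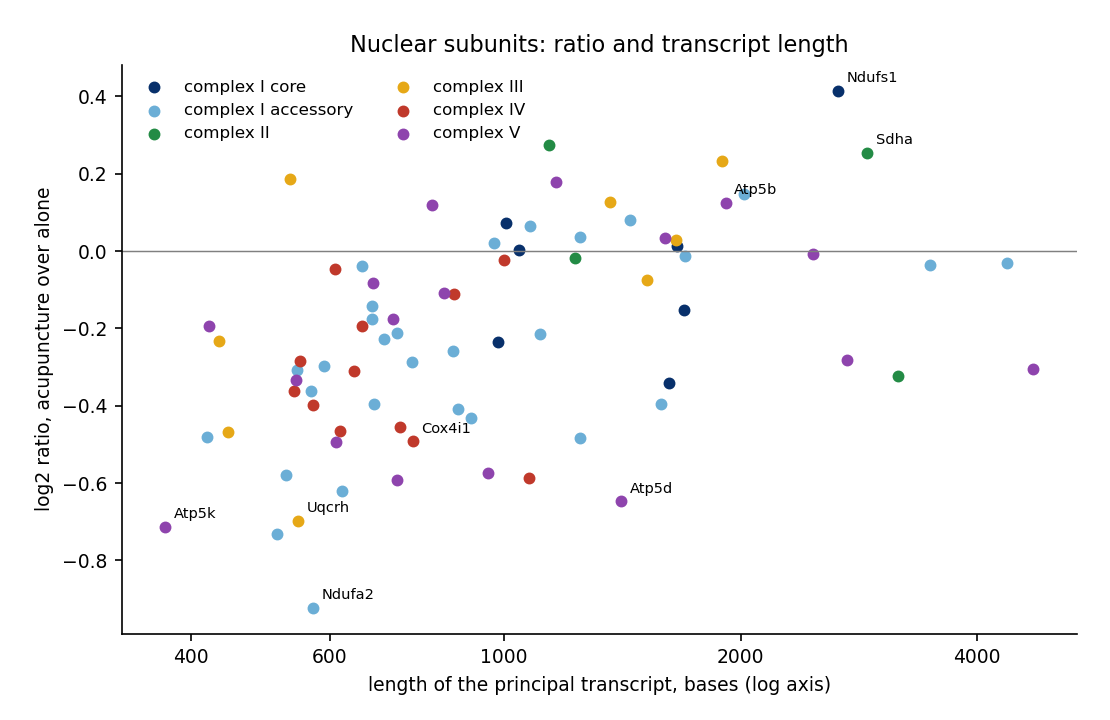
Log2 ratio (acupuncture over PD-1 inhibitor alone) of 77 nuclear subunits against the length of their principal transcript in bases, on a log axis, coloured by complex. Subunits up to 1000 bases centre on -0.31 and longer ones on -0.01, with Ndufs1 highest and Ndufa2 lowest.

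Promoter sequences of nuclear subunits were searched for motifs of factors known to drive respiratory genes, a choice made after the ratios were seen. RefSeq windows on GRCm38.p6, from 250 bases before to 50 after the start, matched 66 of the 78 subunits with 71 windows. Both strands were searched for NRF1 (the full palindromic motif), for the ETS core CCGGAAG bound by GABPA, for YY1 as AAGATGGC and for the hypoxia element ACGTG, and none of these motifs contains another. The subunits' windows held NRF1 in 9.86%, against 1.27% of all 32851 windows, ETS in 23.9% against 8.86%, YY1 in 14.1% against 2.75% and the hypoxia element in 23.9% against 19.6%. A match is a description and not a site. The windows of Sdhd (GRCm38.p6 chr9:50603800-50604099, minus strand), with NRF1 and ETS matches, and of Uqcrh (GRCm38.p6 chr4:116075021-116075320, minus strand), with an ETS match only, are shown (both ETS matches lie on the reverse strand) with the matches in capitals because they stand for a subunit near 1 and a subunit among the lowest.

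Sdhd: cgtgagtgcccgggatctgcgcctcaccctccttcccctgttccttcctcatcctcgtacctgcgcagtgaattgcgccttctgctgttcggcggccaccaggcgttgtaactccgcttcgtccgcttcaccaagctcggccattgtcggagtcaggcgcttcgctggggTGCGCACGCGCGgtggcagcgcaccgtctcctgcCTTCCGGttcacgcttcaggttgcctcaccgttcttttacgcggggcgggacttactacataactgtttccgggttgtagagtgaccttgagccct

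Uqcrh: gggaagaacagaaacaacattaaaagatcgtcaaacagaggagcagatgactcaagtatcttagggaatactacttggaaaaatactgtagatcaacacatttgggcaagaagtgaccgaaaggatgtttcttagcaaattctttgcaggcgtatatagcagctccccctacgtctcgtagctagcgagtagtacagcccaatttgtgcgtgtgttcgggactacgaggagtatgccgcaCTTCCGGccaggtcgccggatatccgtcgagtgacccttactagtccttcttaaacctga

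Medians with and without a match all lay between -0.35 and -0.02. The 7 subunits with NRF1 had a median log2 ratio of -0.02 and the 59 without one of -0.21, but the 7 ran from -0.59 for Atp5g2 to 0.18 for Atp5c1. The 17 with ETS had a median of -0.28 and the 49 without one of -0.21. The 10 with YY1 had a median of -0.09, against -0.22 for 56, and the 16 with the hypoxia element one of -0.35, against -0.16 for 50. No test was made of these differences.

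The isoforms restricted to certain tissues or oxygen levels held the largest ratios of the whole chain, and they went in opposite directions. Cox6a2, the form of subunit 6a in heart and skeletal muscle, had 123 and 646 counts and stood at 1.20 and 10.3 CPM, 8.52-fold higher (7.02 to 10.4). Its common partner Cox6a1 was at 169 and 128 CPM, so that Cox6a2 made up 0.707% of the pair's counts with the inhibitor alone (0.588% to 0.843%) and 7.41% with acupuncture (6.87% to 7.98%). The muscle and brown fat forms that the rule leaves out lay on the same side, Cox8b at 0.980 and 9.22 CPM and Cox7a1 at 0.607 and 2.91 CPM. The summed level of the 15 skeletal muscle markers was 8.59-fold higher in the same library, as given above. Of 8 brown fat markers 7 were listed as higher, beside 9.21% of all genes tested, and the other, Dio2, was at 23.9 and 16.0 CPM. The 8 summed to 26.1 and 66.5 CPM and the 7 without Dio2 to 2.20 and 50.6 CPM, with Elovl3 and Slc27a2 at 0 counts in the library of the inhibitor alone and Ucp1, the uncoupling protein, at 5 and 1251 counts. Of these 8, 2 are Cox8b and Cox7a1 themselves. The part of muscle or brown fat tissue in these ratios was not tested.

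Ndufa4l2 and Cox4i2 are isoforms raised by low oxygen in many cells, and pericytes also carry them. Ndufa4l2 had 1030 and 144 counts and stood at 10.1 and 2.29 CPM, 4.41-fold lower (3.70 to 5.29), while its partner Ndufa4 was at 0.968 times (0.943 to 0.994) its level with the inhibitor alone. It made up 6.68% of the pair's counts with the inhibitor alone (6.29% to 7.09%) and 1.65% with acupuncture (1.39% to 1.94%). Cox4i2 had 269 and 67 counts and stood at 2.63 and 1.06 CPM, 2.47-fold lower (1.89 to 3.28). Its share of the pair with Cox4i1 was 0.479% (0.424% to 0.540%) and 0.273% (0.212% to 0.346%). With the epithelial scaling Cox4i2 was no longer past 2-fold, at a log2 ratio of -0.76, and neither was ND6.

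Other genes by which low oxygen acts on mitochondria had ratios below 1 too. Of 6, all had intervals below 1, beside 34.8% of all genes tested. Past 2-fold were 3 of the 6, beside 4.9% of all genes, and the median log2 ratio was -1.11. With the epithelial scaling the median was -0.58, none was past 2-fold, and Bnip3l and Lonp1 turned to 0.04 and 0.39. Bnip3l, the most abundant, was at 231 and 163 CPM, and its relative Bnip3, which marks mitochondria for removal, at 185 and 64.4 CPM, 2.88-fold lower (2.78 to 2.98), with Higd1a, a small protein bound to complex IV, at 69.7 and 27.7 CPM, 2.52-fold lower (2.39 to 2.65). Of 8 pericyte markers 2 (Rgs5 and Abcc9) were listed as higher and none as lower, beside 9.21% and 4.9% of all genes tested. None was at 0 in either library, and the 8 summed to 253 and 230.3 CPM. Mcam, also found on other vessel cells, was at 118 and 65.8 CPM. The part of oxygen supply or pericytes in the ratios of Ndufa4l2 and Cox4i2 was not tested. Cox6b2, a form typical of testis, had 49 and 35 counts and an interval that holds 1 (0.729 to 1.83). The copy-type symbols Ndufab1-ps, Ndufb4b and Ndufb4c had 39 to 128 counts in a library, and all 3 intervals hold 1.

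**Figure D4:**
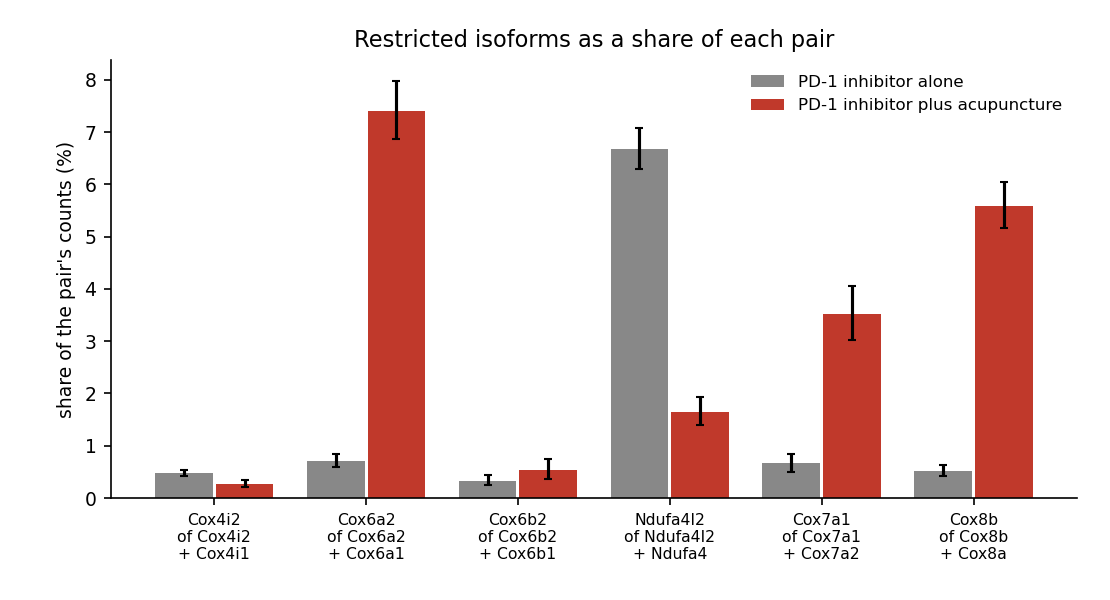
Share of each pair's counts held by the restricted isoform, in percent, with the PD-1 inhibitor alone (grey) and with acupuncture (red); lines are exact 95% counting intervals. Cox6a2 moves from 0.707% to 7.41% and Ndufa4l2 from 6.68% to 1.65%.

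The pathways that feed and build the chain did not share the nuclear subunits' median, but transcript lengths were not matched. Idh3g, the shortest of the citric acid cycle and pyruvate dehydrogenase genes, has 1331 bases, and the nuclear subunits above 1000 bases had a median of -0.01. Citric acid cycle and pyruvate dehydrogenase genes had a median log2 ratio of 0.29 over 17 genes, 14 with intervals above 1 and 1 below, beside 35.1% and 34.8% of all genes tested, and none past 2-fold. Mdh2, its malate dehydrogenase, was at 281 and 281 CPM and Idh3a, the catalytic subunit of isocitrate dehydrogenase, at 75.2 and 121 CPM, 1.61-fold higher (1.56 to 1.67). Fatty acid oxidation had a median of 0.47 over 15 genes, with 2 listed as higher, beside 9.21% of all genes tested. These were Decr1 at 2.46-fold higher (2.31 to 2.63) and Cpt1b, the muscle and brown fat carnitine transferase, at 4.63-fold higher (4.09 to 5.25). The part of muscle or fat tissue in these ratios was not tested. Acadl, the long-chain dehydrogenase, stood at 161 and 223 CPM. Of 12 genes of cytochrome c and coenzyme Q, 1 was listed as higher, beside the same 9.21%. It was Coq8a, a coenzyme Q regulator abundant in muscle, at 3.98-fold higher (3.64 to 4.34). Cycs, cytochrome c itself, was at 89.8 and 149.5 CPM, 1.67-fold higher (1.62 to 1.71).

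The 30 measured assembly genes of complexes III, IV and V had a median of 0.00, with Coa5 most abundant at 110.3 and 115 CPM and Uqcc3, of complex III, lowest at 1.92-fold lower (1.77 to 2.09), and the 4 of complex II had one of 0.12, with Sdhaf2, which attaches the flavin to Sdha, at 41.7 and 48.9 CPM. The 78 mitochondrial ribosomal proteins had a median of -0.06, none past 2-fold, beside 9.21% of all genes listed as higher and 4.9% as lower.

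The machinery of mitochondrial DNA and RNA had a median of 0.09 over 16 genes. None was past 2-fold, beside 9.21% of all genes listed as higher and 4.9% as lower. Tfam, which packages and starts transcription of mitochondrial DNA, was at 60.4 and 61.1 CPM, with an interval that holds 1 (0.971 to 1.05), and Polrmt, the mitochondrial RNA polymerase, was at 0.899 times (0.847 to 0.955) its level with the inhibitor alone. Lrpprc, which stabilises mitochondrial messengers, was at 77.2 and 86.5 CPM, and Pnpt1, part of the degrading enzyme, at 36.6 and 57.0 CPM, 1.56-fold higher (1.49 to 1.63). Of 10 transcriptional regulators of respiratory genes 3 were listed as higher and none as lower, beside 9.21% and 4.9% of all genes tested. These 3 had few counts. Ppargc1a, the coactivator PGC-1alpha, had 13 and 84 counts, a 10.5-fold ratio (5.81 to 20.5), Esrrg had 13 and 44 counts and Ppara had 44 and 153 counts. All of them are abundant in muscle or brown fat, and the part of these tissues in the 3 ratios was not tested. The more abundant Yy1, Gabpa and Nrf1 were at 114 and 126 CPM, 64.0 and 75.4 CPM and 42.0 and 39.7 CPM in that order. The related coactivators Pprc1 and Ppargc1b were at 70.7 and 81.2 CPM and 4.95 and 9.22 CPM, and Esrra and Ppard were at 0.696 times (0.661 to 0.734) and 0.672 times (0.635 to 0.710) their levels with the inhibitor alone. Of 7 measured carriers and channels 1 was listed as higher, beside 9.21% of all genes tested. It was Ckmt2, the creatine kinase of muscle mitochondria, at 25.9-fold higher (17.8 to 39.1). Slc25a3, the phosphate carrier, was at 631 and 516 CPM.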

How the data were processed

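The members and gene lists were chosen with earlier results of these data known. Sequencing libraries were made from total RNA with a SMARTer mRNA kit, per the labels' protocols. The authors deposited raw counts per gene symbol, 1 column per library, without normalization. Per the submitters' processing notes the build was GRCm39 (mm39); which aligner and counter were used, and with what strand setting, is not given in the sources used here.

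Library sizes were scaled by TMM in edgeR 4.0.16 under R 4.3.3 (factors 0.966 and 1.04). CPM are counts per 1000000 of these sizes. Intervals are exact Clopper-Pearson at 95% and cover counting error only, because reads that carry no molecular identifier need not be independent molecules. Log2 ratios carry a prior count of 2. Having 1 library per group, the data gave no test and no p-value.

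Values in both libraries were to be given for the 13 mitochondrially encoded genes, members past 2-fold, the most abundant nuclear member of each complex, the 3 highest and 3 lowest ratios, isoform pairs and the synthase inhibitor, and, of each list, the most abundant and most different gene, with the regulators in full. Other members were chosen after their values were seen, to show the range of each complex. Alternatives were total counts, DESeq2 1.42.0 size factors, upper quartile, totals without mitochondrially encoded genes, prior counts of 0.5 and 5, minimums of 1 and 100, limits of 1.5-fold and 4-fold, and all nuclear members as 1 set. Scaling to epithelial markers and shortest principal transcripts were chosen later, with the data in view. Ratios and intervals were tested on simulated Poisson counts at the real depths, with 200 genes changed by known folds. Such counts hold no spread between tumours, and the TMM scaling was not part of that test. Lengths are of GENCODE M21 principal transcripts. Python 3.11.15 was used with pandas 2.3.3, numpy 2.4.6, matplotlib 3.10.9 and scipy 1.17.1.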

Additional observations from a re-analysis of the deposited data

How the results depend on the processing

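The mitochondrially encoded median and summed ratio kept their direction under every alternative run, and the nuclear ones did so except under the scaling to epithelial markers, which was chosen after the data were seen. Under that scaling the nuclear median became 0.31 and the nuclear summed log2 ratio 0.38 from -0.16. The mitochondrially encoded median became 0.91 and the mitochondrially encoded summed log2 ratio 0.97 from 0.43, with 7 members higher and 1 lower. The nuclear summed log2 ratio was -0.056 by total counts, -0.13 by upper quartile, -0.044 by totals without mitochondrially encoded genes, -0.17 at a count minimum of 1 and -0.15 at 100. The mitochondrially encoded summed log2 ratio was 0.53, 0.46 and 0.54 under the first 3 of these. The nuclear median was -0.11 by totals without mitochondrially encoded genes. Total counts moved the median of all genes by 0.10, totals without mitochondrially encoded genes by 0.11 and the epithelial scaling by 0.53. Relative to the median of all genes the nuclear median was -0.22 under each scaling. That is fixed by arithmetic, because a scaling shifts all log2 ratios nearly alike. With a 1.5-fold limit 7 members were higher and 11 lower, and with a 4-fold limit 1 was higher and 1 lower. No paired analysis was possible because each group has 1 library, and for the same reason no library could be left out. Depth limits Cox6b2 and the copy-type symbols, which had at most 128 counts in a library. Of the members past 2-fold, Cox6a2 had only 123 counts with the inhibitor alone and Cox4i2 only 67 with acupuncture.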
